A study of Mus musculus with 43 samples.

Results

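In all, 10 genes of ATP and adenosine signalling were followed through 4 glial cell types of the mouse cerebral cortex. They were the ATP-gated channels P2rx4 and P2rx7, the nucleotide receptors P2ry1 and P2ry6, the ectoenzymes Entpd1, Entpd2 and Nt5e, the adenosine receptors Adora1 and Adora2b, and the adenosine kinase gene Adk. They were taken by name, 10 of the 55416 genes in each count file, and all 10 were found in every library. Cells release ATP, and enzymes on the outer cell membrane cut it stepwise to ADP, AMP and adenosine. ATP and other nucleotides act on P2X channels and P2Y receptors, whereas adenosine acts on receptors of its own and is cleared by uptake and phosphorylation. In the brain this pathway is known for drawing microglial processes towards injured cells and for its action on the precursors of oligodendrocytes.

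The 43 libraries came from 3-month-old mice of 6 littermate pairs, each pair holding an immunocompetent control and a Rag2-/- mouse. Rag2-/- mice lack mature lymphocytes, carry the allele from the strain B6.Cg-Rag2tm1.1Cgn/J on a C57BL/6J background and were born to heterozygous parents. Controls were Rag2+/- in pairs 1, 2, 3 and 5 and Rag2+/+ in pairs 4 and 6, and the 2 mice of a pair were of the same sex except in pair 6, with a male control and a female Rag2-/- mouse. Oligodendrocytes were analysed from 4 control and 4 Rag2-/- mice, oligodendrocyte precursor cells (OPCs) from 6 and 5, and astrocytes and microglia from 6 and 6 each. Cells were immunopanned, that is, caught on plates coated with an antibody, and the CD45 plate used for microglia can also hold macrophages from outside the brain tissue. All libraries of a cell type shared a sequencing lane, so differences between cell types and between lanes cannot be told apart.

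The libraries held 6499417 to 23118497 counts on genes. Mitochondrial genes took 45.8% to 60.1% of the counts in oligodendrocytes and 6.76% to 11.7% in microglia. Rag2 was at 0 counts in all 21 Rag2-/- libraries and in 19 of 22 control libraries, with at most 4 counts in the others, so it could not separate the genotypes. Each cell type was highest for its own panel of markers. The microglia panel of 8 genes had a median of 7.20% of its microglial level in oligodendrocytes, 4.37% in OPCs and 1.38% in astrocytes. The OPC panel of 7 genes had a median of 33.7% of its OPC level in oligodendrocytes, and the oligodendrocyte panel 18.2% of its own level in astrocytes. Libraries of pair 3 stood apart, since the microglia panel reached 9.37% and 10.0% in their OPC libraries and 13.8% and 11.8% in their oligodendrocyte libraries, against 1.80% to 4.98% and 4.42% to 7.59% in the other pairs. A summed list of 7 neuron genes held 568 to 3009 CPM, the read count relative to the scaled library size, in oligodendrocyte libraries and 300 to 615 CPM in OPC libraries. A summed list of 5 border macrophage genes held 295 to 717 CPM in control and 341 to 609 CPM in Rag2-/- microglia libraries. The part of such macrophages in the levels given for microglia was not tested.

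Windows of 250 bases before the start were in the RefSeq promoter table (build GRCm38.p6) for 9 of the 10 genes, 13 windows in all. Each matched GRCm39, the build of the counts, at 1 place. Stretches are shown for the 3 genes with windows that were highest in microglia, P2rx4, P2rx7 and Entpd1, and for Adk, which was highest in astrocytes, so that promoters of genes with like and unlike patterns stand beside each other. They end before the first annotated exon base, and capitals mark CpG dinucleotides. The P2rx4 stretch lies at chr5:122845357-122845540 and the P2rx7 stretch at chr5:122781740-122781941, both just before the gene. The Entpd1 stretch at chr19:40647964-40648213 and the Adk stretch at chr14:21125970-21126219 lie in introns of the longest gene model, before the start of a shorter transcript, and all are on the plus strand.
P2rx4: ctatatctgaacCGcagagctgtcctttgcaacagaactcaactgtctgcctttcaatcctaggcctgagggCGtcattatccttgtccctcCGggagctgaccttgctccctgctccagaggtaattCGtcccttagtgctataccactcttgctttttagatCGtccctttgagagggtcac
P2rx7: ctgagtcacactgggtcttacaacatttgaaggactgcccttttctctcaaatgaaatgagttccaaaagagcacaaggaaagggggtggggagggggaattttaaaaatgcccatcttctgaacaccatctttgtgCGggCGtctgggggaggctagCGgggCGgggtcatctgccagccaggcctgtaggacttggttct
Entpd1: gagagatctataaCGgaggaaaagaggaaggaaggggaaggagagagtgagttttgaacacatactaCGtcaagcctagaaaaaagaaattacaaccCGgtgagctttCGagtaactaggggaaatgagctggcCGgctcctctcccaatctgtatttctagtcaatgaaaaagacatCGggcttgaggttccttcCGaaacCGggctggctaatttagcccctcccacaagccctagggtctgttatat
Adk: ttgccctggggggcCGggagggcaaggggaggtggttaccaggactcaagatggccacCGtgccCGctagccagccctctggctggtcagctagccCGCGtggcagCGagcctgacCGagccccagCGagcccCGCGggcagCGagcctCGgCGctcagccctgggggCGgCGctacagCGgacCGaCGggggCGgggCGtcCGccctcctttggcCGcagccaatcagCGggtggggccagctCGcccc
In the whole windows, CpG dinucleotides numbered 13 for P2rx4, 6 and 4 for P2rx7, 18 and 8 for Entpd1 and 15 and 24 for Adk, against a median of 6 over all 32851 windows of the table. The letters AGGAAGT, found in binding sites of PU.1, a transcription factor of microglia and other myeloid cells, were searched on both strands and stood in 1 of the 13 windows, that of Adora1, and in 7.69% of all windows. The letters TATAAA stood in 0 of the 13 and in 12.4% of all windows. These counts describe letters in a window and not factor binding.

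Levels were given as CPM after scaling by the trimmed mean of M values (TMM), which assumes that most genes do not differ between libraries. They were compared between cell types with edgeR's quasi-likelihood test over 21368 genes in 1 model of all libraries with each mouse as a block, and a gene was called at a Benjamini-Hochberg adjusted p under 0.05. Differences between cell types are log2 values with their standard error (SE). Scaling by total gene counts instead moved the median of all genes by -1.02 for oligodendrocytes minus OPCs, -0.63 for oligodendrocytes minus astrocytes, -0.90 for oligodendrocytes minus microglia, 0.39 for OPCs minus astrocytes, 0.13 for OPCs minus microglia and -0.27 for astrocytes minus microglia. With it the share of all calls that were higher in the first cell type went from 34.6% to 5.93% for oligodendrocytes against OPCs, from 47.9% to 21.9% against astrocytes and from 46.4% to 27.5% against microglia, and from 59.3% to 79.1% for OPCs against astrocytes. In bulk libraries, fewer cells of a type and less RNA per cell cannot be told apart.

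**Figure D1:**
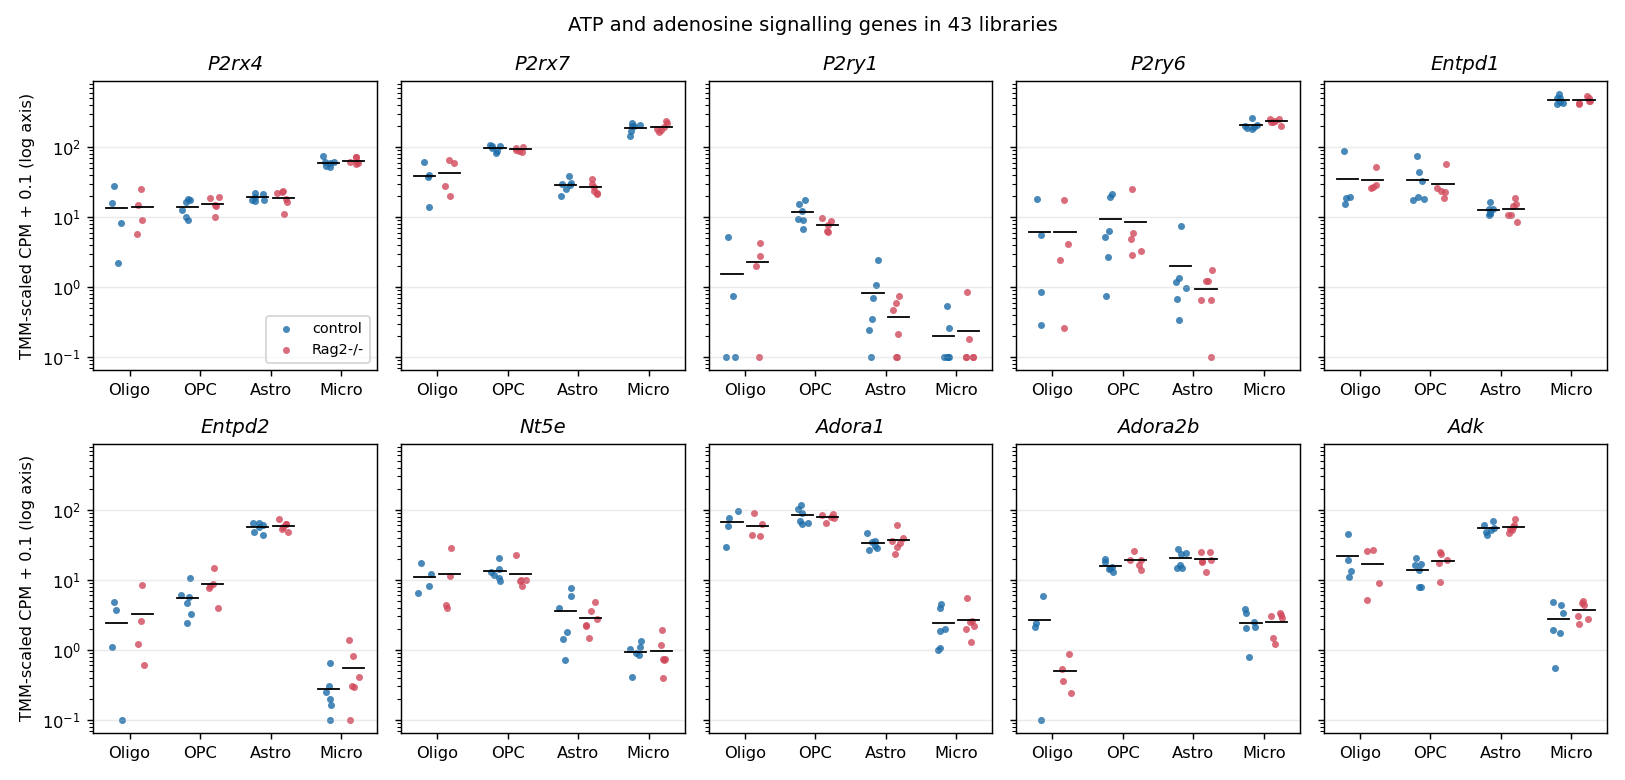
TMM-scaled CPM plus 0.1 of the 10 genes on a log axis, with a point for each of 43 libraries by cell type and genotype and a line at each group mean. Entpd1 reached 407 to 572 CPM in microglia, Entpd2 44.1 to 73.1 CPM in astrocytes and Adora1 62.0 to 119 CPM in OPCs. The ranges of both genotypes overlap for each gene in each cell type.

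Both ATP-gated channels were highest in microglia and were measured in every cell type. P2rx4 (chr5:122845541-122867803, plus strand), a calcium-permeable channel known from reactive microglia, ranged from 51.4 to 75.8 CPM in microglia with a median of 61.4. In astrocytes it ranged from 11 to 23.3 CPM with a median of 18.9, in OPCs from 8.93 to 19.2 CPM with a median of 14.7, and in oligodendrocytes from 2.14 to 28.1 CPM with a median of 12.0. The microglial libraries all lay above every other library, while those of the other 3 cell types overlapped. Microglia exceeded astrocytes by 1.69 ± 0.21 (SE; adjusted p = 1.1e-08, edgeR, n = 12 and 12). The steps from astrocytes to OPCs (0.45 ± 0.21, adjusted p = 0.0924, edgeR) and from OPCs to oligodendrocytes (0.19 ± 0.25, adjusted p = 0.588, edgeR) did not pass the test. Without pair 3 the step from astrocytes to OPCs was called, at 0.60 with an adjusted p of 0.0243 (edgeR).

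P2rx7 (chr5:122781942-122830400, plus strand) encodes the channel that opens at high ATP and leads to release of interleukin-1 from myeloid cells. Its order was microglia, OPCs, oligodendrocytes and astrocytes. It ranged from 145 to 236 CPM in microglia with a median of 198, and from 83.4 to 107 CPM in OPCs with a median of 96.7. The oligodendrocyte libraries spread from 14.1 to 64.9 CPM with a median of 38.7, and the astrocyte libraries from 20.1 to 38.2 CPM with a median of 27.8. Microglia did not overlap with OPCs, nor OPCs with oligodendrocytes. The step from microglia to OPCs was 1.01 ± 0.16 (adjusted p = 1.02e-06, edgeR) and that from OPCs to oligodendrocytes was 1.35 ± 0.19 (adjusted p = 8.74e-07, edgeR). Oligodendrocytes exceeded astrocytes by 0.47 ± 0.18 (adjusted p = 0.0300, edgeR), but 9 of 15 alternatives kept the direction without a call, among them that without pair 3, at 0.19 (adjusted p = 0.463), and total gene counts turned it to -0.14. The level of P2rx7 in OPCs, 43.1% to 55.1% of its microglial mean over 11 libraries, stood above every gene of the microglia panel in each library.

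The 2 nucleotide receptors of the P2Y family lay at opposite ends. P2ry6 (chr7:100585308-100624173, minus strand), a receptor for UDP known for driving phagocytosis by microglia, ranged from 183 to 262 CPM in microglia with a median of 217. In OPCs it ranged from 0.641 to 25.1 CPM with a median of 5.14, in oligodendrocytes from 0.157 to 17.8 CPM with a median of 3.21, and in astrocytes from 0 to 7.46 CPM with a median of 0.974. Microglia thus stood clear of the rest, and both pair 3 libraries were the 2 highest in oligodendrocytes. Microglia exceeded OPCs by 5.30 ± 0.47 (adjusted p = 7.97e-12, edgeR), and OPCs did not pass the test against oligodendrocytes (0.84 ± 0.49, adjusted p = 0.182, edgeR). Oligodendrocytes exceeded astrocytes by 1.79 ± 0.55 (adjusted p = 0.00804, edgeR), but 4 of 15 alternatives did not call it, with values down to 1.21 and adjusted p up to 0.208, and without pair 3 it was 1.35 (adjusted p = 0.0829).

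P2ry6 outside microglia lay within or under the share of microglial markers in every library but 1, the control OPC library of pair 5, at 9.69% of the microglial mean against 2.27% to 6.83% for the panel genes. It stood at 2.73% of its microglial mean in oligodendrocytes and at 0.625% in astrocytes, under all 8 genes of the microglia panel in both, and at 4.01% in OPCs, where 5 of the 8 panel genes were at or above it. Without pair 3, its mean fell from 6.01 ± 7.35 (SD, n = 8) to 2.17 ± 2.21 CPM (SD, n = 6) in oligodendrocytes and from 8.82 ± 8.69 (SD, n = 11) to 5.82 ± 6.08 CPM (SD, n = 9) in OPCs. The part of microglial RNA in these values was not tested further.

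P2ry1 (chr3:60910159-60916403, plus strand), a receptor for ADP that raises intracellular calcium, was highest in OPCs. It ranged there from 6.07 to 17.4 CPM with a median of 9.09, or 62 to 285 counts. It ranged from 0 to 5.10 CPM with a median of 1.28 in oligodendrocytes, from 0 to 2.36 CPM with a median of 0.311 in astrocytes, and from 0 to 0.757 CPM with a median of 0 in microglia, where 8 of 12 libraries had 0 counts. All OPC libraries lay above all others, and the other cell types overlapped at low counts. OPCs exceeded oligodendrocytes by 3.13 ± 0.84 (adjusted p = 0.00360, edgeR), although with Rag2-/- mice alone the difference was 2.21 with an adjusted p of 0.181. Oligodendrocytes did not pass the test against astrocytes (1.76 ± 0.84, adjusted p = 0.0842, edgeR). P2ry1 did not pass the filter within astrocytes or within microglia, with medians of 3 and 0 counts, and entered the joint fit through OPCs. The fitted difference of astrocytes minus microglia, 1.81 ± 0.82 (adjusted p = 0.0499, edgeR; not called in 8 of 15 alternatives), is therefore not read as a difference between them. Of the exonic bases of P2ry1, 21.8% overlap Gm37035 on the opposite strand, which had 0 counts outside OPCs and at most 22 counts in an OPC library.

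**Figure D2:**
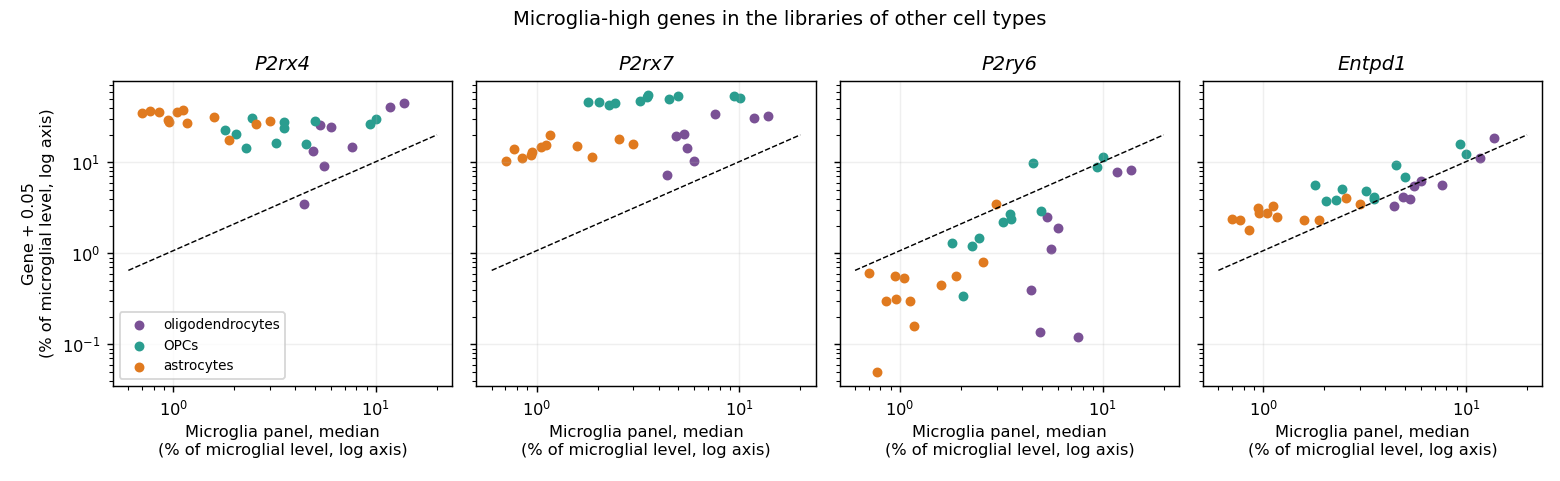
Level of the 4 genes highest in microglia in each oligodendrocyte, OPC and astrocyte library, as percent of the microglial mean plus 0.05, against the median of the 8-gene microglia panel in the same library on the same scale (both axes log; the dashed line marks equal shares). P2rx7 lies above the line in every library and P2rx4 in all but 1 oligodendrocyte library, at 3.45% against 4.42%; P2ry6 lies mostly under it, and Entpd1 near it in oligodendrocytes and above it in OPCs and astrocytes.

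The 2 enzymes that cut ATP were divided between microglia and astrocytes. Entpd1 (chr19:40600810-40731585, plus strand) encodes CD39, which takes ATP and ADP down to AMP and is known from microglia and from blood vessel and immune cells. It ranged from 407 to 572 CPM in microglia with a median of 459, the highest level of any of the 10 genes. It ranged from 15.5 to 87.7 CPM in oligodendrocytes with a median of 26.2, from 17.4 to 74.5 CPM in OPCs with a median of 23.6, and from 8.30 to 18.8 CPM in astrocytes with a median of 12.2. Microglia lay above all other libraries, and the pair 3 libraries were the 2 highest in both oligodendrocytes and OPCs. Microglia exceeded oligodendrocytes by 4.10 ± 0.23 (adjusted p = 9.06e-17, edgeR). Oligodendrocytes and OPCs differed by -0.04 ± 0.20 in the fit (adjusted p = 0.909, edgeR), although the mean CPM was higher in oligodendrocytes, and total-count scaling moved this to -1.05 (adjusted p = 0.000161). OPCs exceeded astrocytes by 1.20 ± 0.18 (adjusted p = 1.82e-06, edgeR).

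Entpd1 was close to the share of microglial markers in oligodendrocytes and above it in OPCs and astrocytes. It stood at 7.30% of its microglial mean in oligodendrocytes, where 4 of 8 panel genes were at or above it and all 8 libraries held it within the range of the panel. In OPCs it stood at 6.84% and in astrocytes at 2.71%, above every panel gene on average, and above all of them in 7 of 11 and 5 of 12 libraries. Without pair 3 its mean fell from 34.4 ± 24.4 (SD, n = 8) to 22.5 ± 5.38 CPM (SD, n = 6) in oligodendrocytes and from 32.2 ± 18.8 (SD, n = 11) to 24.7 ± 8.63 CPM (SD, n = 9) in OPCs.

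Entpd2 (chr2:25285691-25291424, plus strand) encodes an enzyme that prefers ATP and leaves ADP, and was highest in astrocytes. It ranged from 44.1 to 73.1 CPM there with a median of 59.6. In OPCs it ranged from 2.35 to 14.6 CPM with a median of 5.96, in oligodendrocytes from 0 to 8.39 CPM with a median of 1.78, and in microglia from 0 to 1.27 CPM with a median of 0.199. Every astrocyte library was above every library of the other cell types. Astrocytes exceeded OPCs by 3.24 ± 0.39 (adjusted p = 2.92e-08, edgeR), OPCs exceeded oligodendrocytes by 1.48 ± 0.47 (adjusted p = 0.0130, edgeR) and oligodendrocytes exceeded microglia by 2.99 ± 0.54 (adjusted p = 1.46e-05, edgeR). The middle step lost its call without pair 1 (1.10, adjusted p = 0.128) or pair 3 (1.06, adjusted p = 0.0739) and with either genotype alone. In OPCs Entpd2 stood at 11.7% of its astrocyte mean, where the astrocyte panel of 8 genes had a median of 12.7%, and in oligodendrocytes at 4.69%, where the panel had a median of 5.63%. Of its exonic bases, 21.6% overlap Npdc1 on the same strand, a gene with 131 to 1354 counts per library in oligodendrocytes and OPCs.

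Nt5e (chr9:88209089-88254146, plus strand) encodes CD73, which turns AMP into adenosine. It was highest in OPCs and oligodendrocytes and lowest in microglia, so it was low where Entpd1 was high. It ranged from 8.05 to 22.6 CPM in OPCs with a median of 10.5 and from 3.86 to 28.4 CPM in oligodendrocytes with a median of 9.65. In astrocytes it ranged from 0.607 to 7.46 CPM with a median of 2.41, and in microglia from 0.302 to 1.82 CPM with a median of 0.770, or 3 to 20 counts. OPCs and oligodendrocytes overlapped and did not pass the test (0.43 ± 0.41, adjusted p = 0.423, edgeR), while total-count scaling gave 1.52 (adjusted p = 0.00196). Oligodendrocytes exceeded astrocytes by 1.71 ± 0.41 (adjusted p = 0.000827, edgeR), a call lost with Rag2-/- mice alone (1.45, adjusted p = 0.0586), and astrocytes exceeded microglia by 1.85 ± 0.37 (adjusted p = 5.13e-05, edgeR). In oligodendrocytes Nt5e stood at 90.8% of its OPC mean, above all 7 genes of the OPC panel, which lay at 10.1% to 82.3%.

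The 2 adenosine receptors had different orders of levels. Adora1 (chr1:134126948-134163579, minus strand), the high-affinity receptor that lowers cyclic AMP, ranged from 62.0 to 119 CPM in OPCs with a median of 79.8. In oligodendrocytes it ranged from 29.8 to 97.5 CPM with a median of 60.9, in astrocytes from 23 to 60.1 CPM with a median of 33.8, and in microglia from 0.896 to 5.45 CPM with a median of 1.99. Microglia lay under all other libraries. OPCs overlapped with oligodendrocytes and these with astrocytes, but OPCs lay above all astrocyte libraries. OPCs did not pass the test against oligodendrocytes (0.48 ± 0.27, adjusted p = 0.160, edgeR), but total-count scaling gave 1.50 (adjusted p = 3.33e-05). Oligodendrocytes exceeded astrocytes by 0.75 ± 0.26 (adjusted p = 0.0165, edgeR), which was not called without pairs 2, 3 or 5 (lowest 0.35, adjusted p = 0.296), with 1 genotype alone, or under total-count scaling (0.13, adjusted p = 0.712). Astrocytes exceeded microglia by 3.89 ± 0.26 (adjusted p = 4.37e-15, edgeR). Adora1 is also a receptor of neurons, and the neuron list was highest in oligodendrocyte libraries, as given above. Its part in the level there was not tested. Of the exonic bases of Adora1, 52.4% overlap Mybph on the opposite strand, which had 0 to 52 counts per library.

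Adora2b (chr11:62139804-62157279, plus strand), the low-affinity receptor that raises cyclic AMP, was highest in astrocytes and OPCs and low in microglia and oligodendrocytes. It ranged from 12.7 to 27.5 CPM in astrocytes with a median of 18.7 and from 12.9 to 25.7 CPM in OPCs with a median of 16.4. In microglia it ranged from 0.699 to 3.69 CPM with a median of 2.55, and in oligodendrocytes from 0 to 5.81 CPM with a median of 0.607, or 0 to 38 counts. The astrocyte and OPC libraries lay over each other and above all microglial and oligodendrocyte libraries. Astrocytes and OPCs did not pass the test (0.20 ± 0.28, adjusted p = 0.617, edgeR), with a sign that turned under total-count scaling (-0.19). OPCs exceeded microglia by 2.91 ± 0.30 (adjusted p = 2.82e-10, edgeR). The fitted difference of microglia minus oligodendrocytes was 1.31 ± 0.39 (adjusted p = 0.00404, edgeR), but 0.07 with control mice alone (adjusted p = 0.925, edgeR). Adora2b did not pass the filter within oligodendrocytes and had 7 to 59 counts in microglia. This value is therefore not read as a difference between them.

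Adk (chr14:21102618-21499916, plus strand) encodes adenosine kinase, which phosphorylates adenosine to AMP inside cells and is known as the main route of adenosine clearance in astrocytes. It was highest in astrocytes, from 43.8 to 73.0 CPM with a median of 53.6. It ranged from 5.02 to 45.4 CPM in oligodendrocytes with a median of 16.1, from 7.75 to 24.8 CPM in OPCs with a median of 16.7, and from 0.448 to 4.82 CPM in microglia with a median of 3.12. Apart from 1 oligodendrocyte library at 45.4 CPM, the astrocyte libraries lay above all others. Astrocytes exceeded oligodendrocytes by 1.68 ± 0.29 (adjusted p = 1.34e-05, edgeR) and OPCs exceeded microglia by 2.39 ± 0.26 (adjusted p = 1.29e-09, edgeR). Oligodendrocytes and OPCs did not pass the test (0.18 ± 0.29, adjusted p = 0.653, edgeR), and total-count scaling turned this to -0.86 (adjusted p = 0.0129).

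Counted over the 10 genes, the most calls involved microglia. Between oligodendrocytes and microglia 5 of the 10 were higher in oligodendrocytes, where 30.4% of all genes tested were, and 5 were lower, where 35.1% were. Between OPCs and microglia 6 were higher in OPCs (37.8% of all genes) and 4 lower (30.8%). Between astrocytes and microglia 6 were higher in astrocytes (35.8% of all genes), of which P2ry1 was under the filter in both, and 4 lower (33.5%). The 4 lower were P2rx4, P2rx7, P2ry6 and Entpd1 in both. Adora2b, under the filter within oligodendrocytes, was the fifth gene called lower there than in microglia. Between OPCs and astrocytes 6 were higher in OPCs (24% of all genes) and 2, Entpd2 and Adk, were lower (16.5%). Oligodendrocytes against astrocytes gave 5 higher (22.1% of all genes) and 4 lower (24%). Both sets of genes higher than in astrocytes included P2ry6 and Entpd1. Outside microglia P2ry6 lay on average under or close to the share of microglial markers. Entpd1 lay close to it in oligodendrocytes, and on average above every panel gene in OPCs and astrocytes. The microglia panel itself had a median share of 7.20% in oligodendrocytes and 4.37% in OPCs, against 1.38% in astrocytes. The part of microglial RNA in these calls was not tested. Oligodendrocytes against OPCs gave 0 higher (13% of all genes, edgeR; 0 also at an unadjusted p under 0.05) and 4 lower (24.7%), namely P2rx7, P2ry1, Entpd2 and Adora2b, and DESeq2 called 4 and voom 5 in either direction. Over the 10 genes the median difference was -0.66 for oligodendrocytes minus OPCs, against -0.35 over all genes tested, and 2.65 for OPCs minus microglia, against 0.17.

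Divided by exonic length, the levels of different genes could be set side by side within a cell type. In microglia the order began with Entpd1 at 66.2 ± 7.52 CPM per kb (SD, n = 12), P2ry6 at 33.7 ± 4.23, P2rx7 at 19.8 ± 2.71 and P2rx4 at 7.96 ± 0.953, and Nt5e and P2ry1 came last at 0.0962 ± 0.0478 and 0.0247 ± 0.0495 CPM per kb. In astrocytes Entpd2 led at 20.5 ± 3.02 CPM per kb (SD, n = 12), followed by Adora2b at 10.7 ± 2.65 and Adora1 at 5.50 ± 1.57. In OPCs Adora1 at 12.8 ± 2.69, P2rx7 at 9.75 ± 0.806 and Adora2b at 9.25 ± 2.00 CPM per kb (SD, n = 11) were the 3 highest and overlapped. In oligodendrocytes Adora1 led at 9.76 ± 3.74 CPM per kb (SD, n = 8), ahead of Entpd1 at 4.83 ± 3.43 and P2rx7 at 4.16 ± 2.01. The enzyme at the head of the chain thus differed between microglia and astrocytes, and among the 10 genes the leading receptor was P2ry6 in microglia, Adora2b in astrocytes and Adora1 in OPCs and oligodendrocytes. Since the counting mode and strand setting are not stated, reads from the bases that Adora1, Entpd2 and P2ry1 share with other genes may have been lost or given to either gene, and the effect on their levels per kb was not tested.

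**Figure D3:**
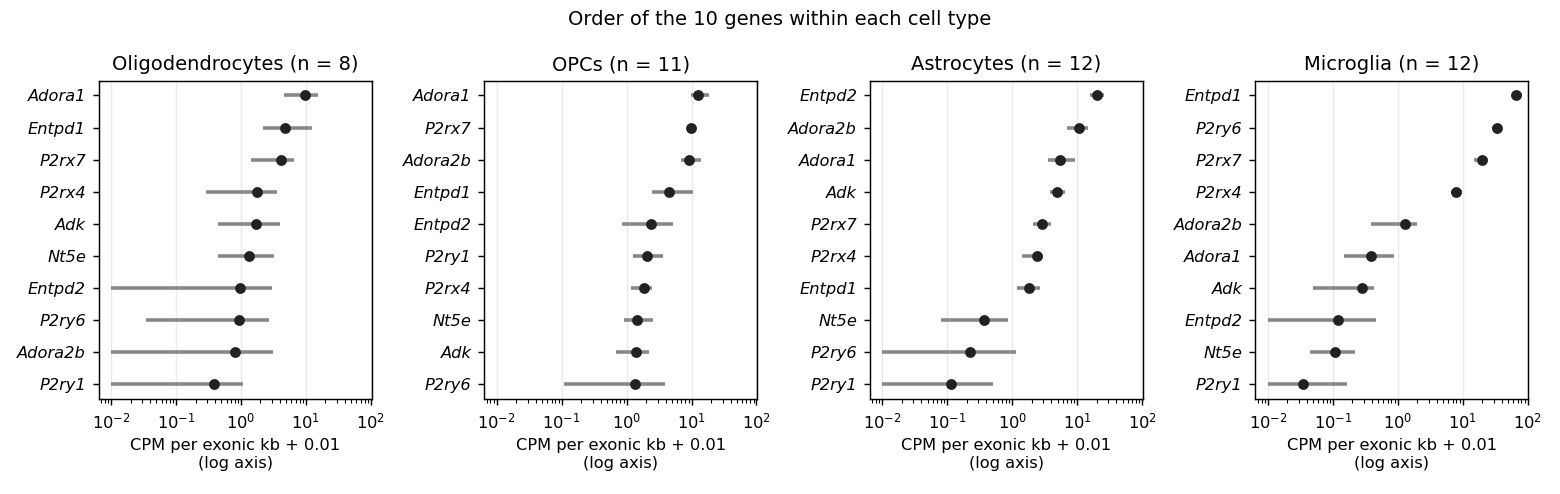
CPM per exonic kb plus 0.01 of the 10 genes within each cell type on a log axis, ordered by mean; points are means over libraries and bars run from the lowest to the highest library. Entpd1 leads in microglia at 66.2 CPM per kb, Entpd2 in astrocytes at 20.5, and Adora1 in OPCs at 12.8 and oligodendrocytes at 9.76.

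A wider list of 34 other genes of ATP release, nucleotide receptors, ectoenzymes and adenosine handling gave the setting, with 27 past the filter of the joint fit. Of these, 9 were higher in oligodendrocytes than in microglia (30.4% of all genes tested were) and 12 lower (35.1%). In OPCs against microglia 10 were higher (37.8%) and 9 lower (30.8%), and in astrocytes against microglia 9 (35.8%) and 13 (33.5%). Between OPCs and astrocytes 13 were higher in OPCs (24%) and 7 lower (16.5%). Oligodendrocytes were higher than astrocytes for 8 (22.1%) and lower for 7 (24%). They were higher than OPCs for 5 (13%) and lower for 11 (24.7%). Whether the list departs from all genes was not tested. The 3 highest per exonic kb in microglia were P2ry12, an ADP receptor that is also a panel marker, at 265 ± 34.3 CPM per kb, P2ry13, a related ADP receptor, at 99.96 ± 17.8, and Slc29a3, a nucleoside transporter of lysosomes, at 49.1 ± 5.29 (SD, n = 12). Enpp2, which encodes the lysophospholipid enzyme autotaxin of the nucleotide pyrophosphatase family, was highest in the other 3, at 139 ± 21.9 CPM per kb in oligodendrocytes (SD, n = 8), 34.6 ± 3.89 in OPCs (SD, n = 11) and 38.7 ± 15.2 in astrocytes (SD, n = 12). It was followed by P2ry12 at 28.2 ± 10.9 and Slc29a3 at 11.9 ± 3.68 in oligodendrocytes, by P2ry12 at 13.9 ± 8.17 and the AMP deaminase gene Ampd3 at 12.9 ± 2.83 in OPCs, and by Pnp, which encodes purine nucleoside phosphorylase, at 12.2 ± 1.55 and Slc29a3 at 9.67 ± 1.03 in astrocytes. P2ry12 there was at 10.7% of its microglial level in oligodendrocytes and at 5.25% in OPCs. The microglia panel, of which it was the highest gene, had medians of 7.20% and 4.37%. The part of microglial RNA in these P2ry12 levels was not tested.

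Genes most like each member were picked by correlation over these same 43 libraries. That they share its pattern follows from this choice. By Pearson's r of log2(CPM + 1) over 14720 protein-coding genes, P2ry6 was nearest to Slfn2, Itga5 and Slc11a1 (r = 0.983, 0.978 and 0.976) and Entpd1 to Dennd4a, Kdm6b and Selplg (r = 0.985, 0.985 and 0.984). P2rx4 was nearest to Swap70, H2-K1 and Ifrd1 (r = 0.945, 0.942 and 0.935) and P2rx7 to Dse, Dab2 and Sipa1l2 (r = 0.954, 0.952 and 0.944). Entpd2 was nearest to Atp13a4, Prdx6 and Fam20a (r = 0.978, 0.976 and 0.975) and Adk to Ptar1, Lhx2 and Itih3 (r = 0.952, 0.948 and 0.948). P2ry1 was nearest to Kcnip1, Plppr1 and Dll3 (r = 0.923, 0.923 and 0.923), Nt5e to Tceal5, Aff2 and Cobl (r = 0.922, 0.907 and 0.905), Adora1 to Grik2, Cdc42ep1 and Unc5c (r = 0.973, 0.973 and 0.971) and Adora2b to Xpr1, Olfml2a and Gpx8 (r = 0.923, 0.919 and 0.910). The libraries of a cell type share a lane and most mice gave all 4 cell types, so these values describe the pattern across cell types.

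Whether the lack of lymphocytes changed these genes was asked within each cell type, with sex and genotype as terms as in the study's own model. None of the genes tested was called by genotype with edgeR. This was 0 of 9 past the filter in oligodendrocytes (0.00% of all genes tested were called), 0 of 10 in OPCs (0.00592%), 0 of 8 in astrocytes (0.00679%) and 0 of 7 in microglia (0.00667%), and DESeq2 and limma's voom also called 0 of the members in each. The shares of all genes are those of edgeR. Those of DESeq2 and voom are not given here or below, so their counts of 0 are not read further. With DESeq2 the study itself reported more differentially expressed genes in oligodendrocytes than in the other cell types. At an unadjusted p under 0.05 there were 0 in oligodendrocytes (3.38% of all genes), 1 in OPCs (4.02%), 0 in astrocytes (2.87%) and 0 in microglia (2.90%). For the 4 genes highest in microglia the genotypes overlapped. P2ry6 ranged from 183 to 262 CPM with a median of 199 in controls and from 203 to 256 CPM with a median of 234 in Rag2-/- microglia. Its difference of 0.18 ± 0.11 had the smallest p of the 7 in microglia (unadjusted p = 0.101, adjusted p = 0.999, edgeR, n = 6 and 6), with overlapping groups. Within littermate pairs P2ry6 was higher in the Rag2-/- mouse in 5 of 6, the exception being pair 6 with mice of unlike sex (256 against 262 CPM), and with the pair as a block the difference was 0.19 (adjusted p = 0.968, edgeR). Entpd1 ranged from 413 to 572 CPM in control and from 407 to 544 CPM in Rag2-/- microglia, with a difference of 0.00 ± 0.10. P2rx4 differed by 0.08 ± 0.12 and P2rx7 by 0.03 ± 0.12, and the 7 genes tested ran from 0.00 to 0.40.

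In OPCs the gene at an unadjusted p under 0.05 was P2ry1. Control OPCs held 6.63 to 17.4 CPM with a median of 10.7, and the 5 Rag2-/- libraries held 7.59, 6.07, 8.64, 6.25 and 9.50 CPM. The Rag2-/- values all lay under the control median, 2 of them under the lowest control, and the groups overlapped. The difference was -0.61 ± 0.27 (unadjusted p = 0.0392, adjusted p = 1.00, edgeR, n = 6 and 5), and it did not pass after adjustment. With the littermate pair as a block it was -0.55. The other 9 ran from -0.24 to 0.67, the last being Entpd2, at 5.35 ± 2.87 CPM in control (SD, n = 6) and 8.55 ± 3.88 CPM in Rag2-/- OPCs (SD, n = 5; unadjusted p = 0.107 with edgeR's test). The marker lists of these libraries moved in both directions. The OPC panel itself had a median summed level of 3523 CPM (3089 to 4334) in control and 3184 CPM (2638 to 3786) in Rag2-/- OPCs. The microglia panel had 224 CPM (113 to 495) and 182 CPM (104.1 to 505), the neuron list 435 CPM (306 to 615) and 401 CPM (299.9 to 613), and 5 genes of border macrophages 14.3 CPM (8.87 to 45.1) and 12.475 CPM (6.76 to 71.1). Other lists were higher in Rag2-/- OPCs. The summed astrocyte panel had a median of 2954 CPM (2344 to 3375) in control and 4317 CPM (2706 to 6283) in Rag2-/- OPCs, and the oligodendrocyte panel 422 CPM (287 to 1071) and 897 CPM (339 to 1200). A list of 6 mural cell genes had 74.7 CPM (59.0 to 186) in control and 178 CPM (77.5 to 289.6) in Rag2-/- OPCs, and 6 endothelial genes 31.8 CPM (21.4 to 54.7) and 60.6 CPM (27.2 to 99.6), while 5 fibroblast genes had 33.3 CPM (22.8 to 54.5) and 36.1 CPM (23.6 to 43.8). Their part in the differences was not tested.

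**Figure D4:**
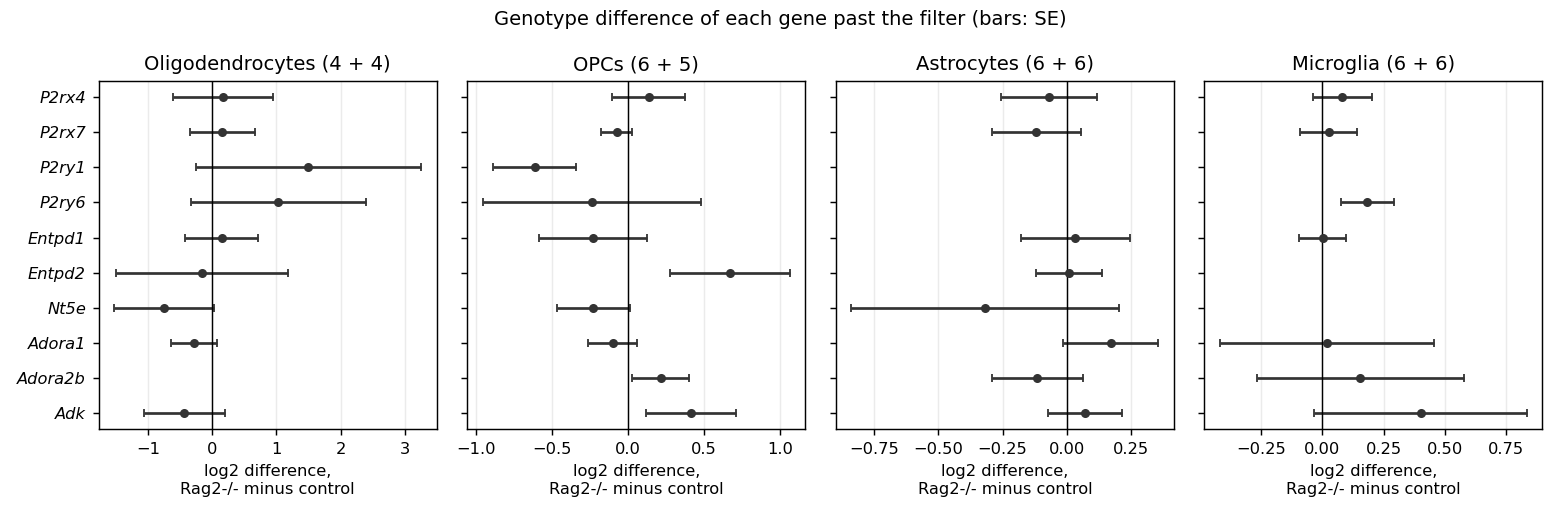
Log2 difference of Rag2-/- minus control for the genes past the filter in each cell type, with the SE as bars and numbers of control and Rag2-/- libraries in the titles; each panel has its own horizontal scale. In microglia Entpd1 lies at 0.00, P2rx7 at 0.03, P2rx4 at 0.08 and P2ry6 at 0.18, and P2ry1 in OPCs lies at -0.61.

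In oligodendrocytes the smallest unadjusted p was that of Nt5e. Control libraries held 6.47, 8.13, 11.9 and 17.4 CPM and Rag2-/- libraries 3.86, 4.21, 11.2 and 28.4 CPM, so the Rag2-/- values reached both lower and higher. The difference was -0.75 ± 0.78 (unadjusted p = 0.352, adjusted p = 0.998, edgeR, n = 4 and 4), and without the term for sex its sign turned, to 0.13. The 9 genes tested ran from -0.75 to 1.50. Adora2b did not pass the filter there. It held 1.99, 2.32, 0 and 5.81 CPM in control and 0.429, 0.255, 0.785 and 0.140 CPM in Rag2-/- oligodendrocytes, or at most 38 counts, so the 3 controls above 0 exceeded every Rag2-/- library and the fourth lay under them. In the same libraries the fibroblast list had a median of 10.3 CPM (2.58 to 20.2) in control and 0.506 CPM (0.255 to 2.79) in Rag2-/- mice, and the mural list 45.9 CPM (10.1 to 87.8) and 25.03 CPM (10.5 to 41.8). Their part in the Adora2b values was not tested. In astrocytes Adora1 had the smallest unadjusted p, at 33.7 ± 7.36 CPM in control and 36.9 ± 12.7 CPM in Rag2-/- libraries (SD, n = 6 and 6; difference 0.17 ± 0.19, unadjusted p = 0.373, adjusted p = 1.00, edgeR). Entpd2 and Adk, the 2 genes highest in astrocytes, differed by 0.01 ± 0.13 and 0.07 ± 0.14, and the 8 tested ran from -0.32 to 0.17.

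Whether the genotype effect differed between cell types was tested as an interaction in the joint fit, and 0 of the 10 genes were called (0.0234% of 21368 genes were; DESeq2 and voom also called 0). At an unadjusted p under 0.05 there was 1 (6.70% of all genes), Adora2b, with an unadjusted p = 0.00765 and an adjusted p of 0.498 (edgeR). Adora2b did not pass the filter in oligodendrocytes, where it had 0 to 38 counts, and entered the joint fit through the cell types where it is high, so nothing is read from that p. Its means went from 2.53 ± 2.42 to 0.402 ± 0.282 CPM from control to Rag2-/- oligodendrocytes (SD, n = 4 and 4) and from 15.7 ± 2.47 to 18.9 ± 4.43 CPM in OPCs (SD, n = 6 and 5). Of the 34 other pathway genes, 0 were called by genotype with edgeR among 17, 24, 18 and 21 tested in oligodendrocytes, OPCs, astrocytes and microglia. An unadjusted p under 0.05 was reached by 0, 2, 1 and 1 of them, and by 3.38%, 4.02%, 2.87% and 2.90% of all genes tested. DESeq2 and voom likewise called 0 of them.

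Females and males were compared in the same fits, since the study also asked about sex. With edgeR 0 of the genes tested were called in oligodendrocytes (0.0362% of all genes were), OPCs (0.0296%), astrocytes (0.0407%) or microglia (0.0467%), and DESeq2 and voom called 0 as well. At an unadjusted p under 0.05 there were 0 in oligodendrocytes (8.23% of all genes), 1 in OPCs (4.30%), 2 in astrocytes (6.73%) and 1 in microglia (3.92%). In OPCs Nt5e was at 16.3 ± 6.10 CPM in 4 female and 10.5 ± 1.88 CPM in 7 male libraries, a difference of 0.68 ± 0.25 (unadjusted p = 0.0142, adjusted p = 0.999, edgeR). The 2 highest libraries, at 22.6 and 20.2 CPM, were female, and the other 2 female libraries, at 12.9 and 9.57 CPM, lay in the male range.

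The adenosine receptors of astrocytes differed between the sexes in opposite directions before adjustment. Adora1 was at 29.6 ± 4.51 CPM in 5 female and 39.4 ± 11.2 CPM in 7 male astrocyte libraries (-0.43 ± 0.19, unadjusted p = 0.0356, adjusted p = 0.719, edgeR). Adora2b was at 23.7 ± 3.53 CPM in females and 17.2 ± 3.88 CPM in males (0.49 ± 0.18, unadjusted p = 0.0128, adjusted p = 0.716, edgeR). Entpd1 in microglia was at 427 ± 21.9 CPM in 5 female and 503 ± 46.3 CPM in 7 male libraries (-0.23 ± 0.10, unadjusted p = 0.0301, adjusted p = 1.00, edgeR). In oligodendrocytes Nt5e, with 17.2 ± 9.74 CPM in 3 female and 8.02 ± 5.54 CPM in 5 male libraries, had the smallest p (1.60 ± 0.79, unadjusted p = 0.0671, adjusted p = 0.636, edgeR). None of these passed after adjustment.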

How the data were processed

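The deposited files hold raw counts of reads per gene, 1 file per library. The authors aligned 50-base read pairs with STAR 2.7.8a to GRCm39 and counted reads per Ensembl gene with HTSeq; the counting mode and strand setting are not given in the sources used here. Lines that name no gene were left out of library sizes; they held 33.5% to 52.0% of each file's total. Libraries held 6499417 to 23118497 gene counts. Gene positions, exonic lengths and overlaps came from a GENCODE annotation that is not the Ensembl release used by the authors for counting. Gene models can differ between them, and the effect on levels per kb and on overlaps was not tested.

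Genes were filtered with edgeR's filterByExpr (minimum count 10, minimum total 15), scaled by TMM and fitted with edgeR 4.0.16 quasi-likelihood models in R 4.3.3. Within a cell type the terms were sex and genotype, and between cell types the mouse was a block. P-values were adjusted by Benjamini-Hochberg over all genes tested. They set each difference against the variation between these samples that the terms of the model leave over. DESeq2 1.42.0 and limma 3.58.1 voom were alternatives. Scripts were tested on simulated data.

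The members and the lists of other genes were chosen with earlier results of these data known. All members are named; by genotype and sex, those with an unadjusted p under 0.05, or else the smallest, are given in full. Of the other pathway genes, the 3 highest per exonic kb in each cell type are named, and for likeness the 3 nearest protein-coding genes. Replicate numbers mark littermate pairs in the labels. Deviations from group means correlated within pairs at a mean of 0.141 in astrocytes, 0.125 in OPCs, 0.107 in oligodendrocytes and 0.0976 in microglia, and between pairs at -0.0351 to -0.0199.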

Additional observations from a re-analysis of the deposited data

Results flagged for a closer look

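Of 80 groups of 4 to 6 libraries, 1 per gene, cell type and genotype, 12 had a highest library whose gap to the next exceeded Dixon's 95% critical value. For normally distributed values chance gives such a gap at either end in about 1 group in 20, and less often at the high end alone. The CPM were not transformed and some groups lay near 0, so that rate need not hold here. Groups that share a library are not independent. In pair 3, the pair with the highest microglia panel outside microglia, these were Entpd1 in control oligodendrocytes at 87.7 CPM (15.5 to 19.3 in the others), Entpd1 in Rag2-/- oligodendrocytes at 52.7 CPM (25.9 to 28.9), Entpd1 in Rag2-/- OPCs at 57.7 CPM (18.6 to 26.1), P2ry6 in Rag2-/- OPCs at 25.1 CPM (2.77 to 5.77) and P2ry6 in control astrocytes at 7.46 CPM (0.243 to 1.23). The part of microglial RNA in them was not tested.

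In pair 6, the Rag2-/- OPC library held Nt5e at 22.6 CPM (8.05 to 9.92 in the others), the control microglia library P2ry6 at 262 CPM (183 to 207) and the Rag2-/- microglia library Adora1 at 5.45 CPM (1.18 to 2.45). The others rested on few counts. P2ry1 reached 0.757 CPM, or 11 counts, in 1 Rag2-/- microglia library, 0.437 CPM, or 7 counts, in 1 control microglia library and 5.10 CPM, or 41 counts, in 1 control oligodendrocyte library, and Entpd2 reached 0.547 CPM, or 7 counts, in 1 control microglia library.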

How the results depend on the processing

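The counts of members called by genotype, by sex and in the interaction were 0 under every alternative run, including the replicate block of littermate pairs, under which P2ry1 in OPCs gave -0.55. Between oligodendrocytes and OPCs the count of 4 became 10 under total gene counts. In that fit 855 of all 21368 genes were called higher in oligodendrocytes and 13572 lower, with the median of all genes moved by -1.02. With Rag2-/- mice alone the count of 4 became 2. Between oligodendrocytes and astrocytes 9 became 5 with control mice alone and 5 with Rag2-/- mice alone. Shares over all genes are not given for the fits of a single genotype, so these counts are not read further. Without the replicate block of mice, P2ry1 was called between oligodendrocytes and astrocytes (1.89, adjusted p = 0.0264, edgeR) and not between astrocytes and microglia (1.61, adjusted p = 0.0577, edgeR).

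Signs turned for differences that had not passed the test and for P2rx7. Total gene counts gave -0.14 for P2rx7 in oligodendrocytes minus astrocytes, -0.19 for Adora2b in astrocytes minus OPCs and -0.86 for Adk in oligodendrocytes minus OPCs, and totals without mitochondrial genes gave -0.0684 for Adora2b and -0.25 for Adk. With Rag2-/- mice alone Adk gave -0.22, and without 1 pair it ran from -0.11 to 0.51. Entpd1 in oligodendrocytes minus OPCs, -0.04, became 0.0352 with DESeq2's size factors, 0.0339 with DESeq2, 0.0642 with voom, 0.10 with no replicate block and 0.15 with Rag2-/- mice alone, and ran from -0.15 to 0.12 without 1 pair. By genotype, Nt5e in oligodendrocytes became 0.13 without the sex term, and Adora1 in astrocytes ran from -0.0148 to 0.26 without 1 library. The causes were not tested. Counts near 0 limit P2ry1, Entpd2 and Nt5e in microglia.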
